A study of Mus musculus with 2 samples.

Results

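*Fos*, *Fosb*, *Jun*, *Junb*, *Jund*, *Atf3*, *Egr1*, *Ier2*, *Dusp1* and *Btg2* are immediate early genes, and these 10 genes were described in single cells of the E15.5 mouse fetal ovary. They were found by symbol, 1 row each, among the 27998 gene rows of both deposited count matrices. Such a list had first been drawn up for these data after several members were seen to be lower in cells without the glucocorticoid receptor (GR, *Nr3c1*), so the members count as selected on their KO over WT ratios in these same libraries. The KO against WT values below are therefore a description, carry no test and support nothing by themselves.

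Each genotype was 1 library from the 10x Genomics 3′ kit (v3), made from pooled ovaries of 2 KO embryos or 4 WT embryos at E15.5 (embryonic day). KO embryos were homozygous for a constitutive *Nr3c1* deletion, obtained by crossing a floxed exon to a Cre driven by the β-actin promoter, so the receptor was missing in germ and somatic cells alike. Both genotypes carried the *Pou5f1*-GFP transgene (Tg(Pou5f1-EGFP)2Mnn), which marks germ cells. The ovaries were digested in trypsin at 37 °C for 30 minutes and for a further 10 minutes with DNase I, sorted by GFP, and remixed at 60 parts germ cells to 40 parts somatic cells. Both libraries went through this digestion, no undigested sample was measured, and what part of any level below arose during digestion was not tested.

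Immediate early genes are transcribed within minutes of a stimulus, without new protein synthesis, through factors such as SRF and CREB that are already bound to DNA. FOS, FOSB, JUN, JUNB, JUND and ATF3 are leucine zipper proteins that pair to form the transcription factor AP-1, EGR1 is a zinc finger factor, IER2 a small nuclear protein, DUSP1 a phosphatase that switches off MAP kinases, and BTG2 an antiproliferative protein. These transcripts are short lived, and warm enzymatic dissociation of tissue is well known to raise them. GR is known to activate *Dusp1* and to oppose AP-1 at many genes.

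Promoter sequence is shown because 1 short element recurred in most of the promoters that could be read. The letters TGACG, the core of the element bound by CREB and related factors, were searched on both strands in the 250 bases before each RefSeq start site (GRCm38.p6). A promoter was matched for 8 of the 10 members. TGACG was present in 6 of these 8 and in 17.8% of all 32851 promoters. The longer letters TGACGTCA, each copy of which also holds TGACG, were present in *Dusp1* and *Btg2* and in 1.55% of all promoters. Each line below is a stretch of 30 bases, 5′ to 3′ on the gene's strand, with the matched letters in capitals.
Fos: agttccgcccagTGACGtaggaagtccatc
Fosb: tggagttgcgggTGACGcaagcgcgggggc
Junb: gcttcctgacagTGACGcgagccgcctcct
Atf3: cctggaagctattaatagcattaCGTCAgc
Dusp1: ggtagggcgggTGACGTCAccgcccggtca
Btg2: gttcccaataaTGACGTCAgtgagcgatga

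The stretches lay at chr12:85473812-85473841 (*Fos*, plus strand), chr7:19310088-19310117 (*Fosb*, minus strand), chr8:84978837-84978866 (*Junb*, minus strand), chr1:191183334-191183363 (*Atf3*, minus strand), chr17:26508597-26508626 (*Dusp1*, minus strand) and chr1:134079303-134079332 (*Btg2*, minus strand). The shown copy began 66 bases before the start site of *Fos*, 60 before *Fosb*, 106 before *Junb*, 7 before *Atf3*, 143 before *Dusp1* and 166 before *Btg2*. The AP-1 letters TGACTCA were in none of the 8 promoters and in 4.46% of all promoters, and the EGR1 letters GCGTGGGCG were in none and in 0.536%. The CArG box bound by SRF was in none of the 8 windows and in 1.47% of all. These are matches of letters in a window and not binding sites, and the missing ones say nothing about the factor.

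The median span of the members in the GENCODE annotation was 4093 bases, against 17732.5 bases over 21554 coding genes, and *Jun*, *Junb*, *Jund* and *Ier2* each have 1 exon. The annotated spans of *Atf3* (47744 bases) and *Dusp1* (56539 bases) were far longer, but both reach upstream of the RefSeq start sites used above. The longest coding transcripts of these 2 genes have 1984 and 1990 bases. The pentamer ATTTA, a part of the elements known to shorten the life of an mRNA, occurred at a median of 2.40 copies per kb of 3′ UTR in the members and 1.34 per kb over coding genes. *Dusp1* had the densest copies (5.77 per kb), followed by *Fos* (4.89 per kb), and *Ier2* had none. *Jun*, *Junb*, *Jund*, *Atf3* and *Dusp1* overlap an annotated gene on the other strand, and *Dusp1* also genes on its own strand. Whether these overlaps affected the counts was not tested.

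After the study's limits on cells, 15502 KO and 9045 WT cells remained, with medians of 10194.5 and 15685 unique molecular identifiers (UMIs, 1 per captured mRNA molecule) per cell. Of the kept barcodes, 27 occurred in both libraries. Cells were clustered without the members and without 32 further early genes, and clusters were named by marker lists. In both libraries, 7 of 9 granulosa and 7 of 8 epithelia markers were detected in at least 10% of the cells of their class. For perivascular-like cells it was 7 of 8 in KO and 8 of 8 in WT, and for every other class 8 of 8. Granulosa markers in epithelia-like cells were at a median of 36.7% (WT) and 40.8% (KO) of their granulosa-like level. There were 10223 KO and 6809 WT germ-like cells, 2015 and 917 granulosa-like, 1890 and 823 theca-like, 1075 and 401 epithelia-like, 136 and 30 endothelia-like, 59 and 20 perivascular-like, 50 and 31 immune-like, and 54 and 14 erythroid-like cells. *Nr3c1* itself was at 71.8 counts per 1000000 UMIs (CPM) in WT and 11.6 CPM in KO germ-like cells, and at 32.8 and 8.23 CPM in all somatic-like cells together. Where in the gene these 3′ tags lie relative to the deleted exon was not given in the files.

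All 10 members were higher in the somatic-like cells together than in germ-like cells. Their summed level was 124 CPM in WT and 121 CPM in KO germ-like cells, against 3585 and 2913 CPM in all somatic-like cells. The immune-like cells had the highest sum (8511 WT and 6040.5 KO), followed by the epithelia-like (4238 and 3773) and granulosa-like cells (4022 and 3237). Theca-like cells were at 2427 and 1826 CPM and erythroid-like cells at 342 and 310.3 CPM. Germ markers in the erythroid-like cells stood at 40.2% (WT) and 53.2% (KO) of their germ-like level, so these cells held much germ RNA. Values are UMIs of the class divided by all UMIs of the class and library, and since 3′ counting gives 1 tag per molecule they are not scaled by length. Every interval given is an exact 95% interval that covers counting error only, because each class and genotype is 1 library.

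**Figure D1:**
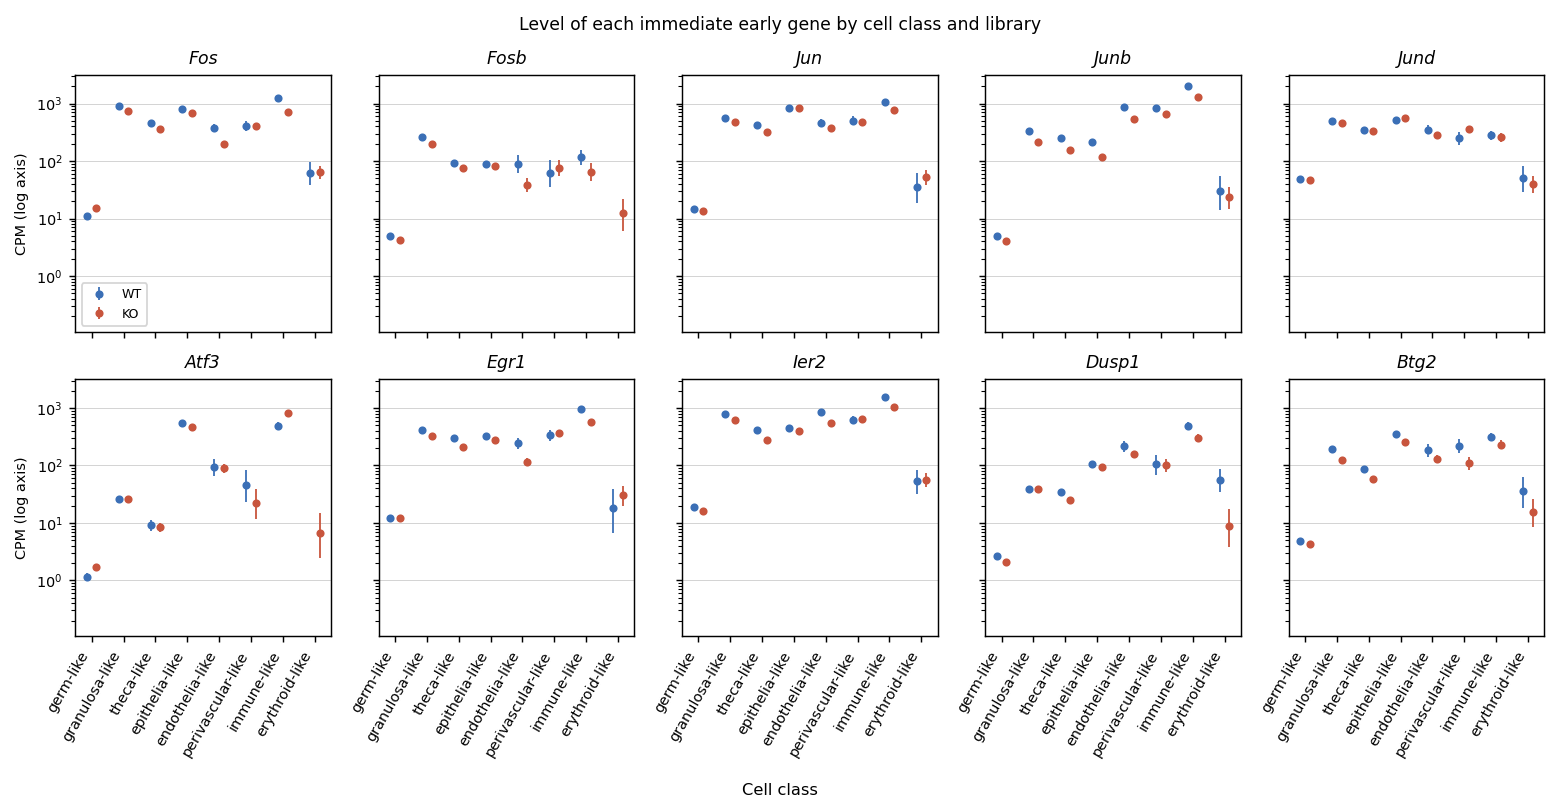
Level of each member in CPM on a log axis (vertical) by cell class (horizontal), WT in blue and KO in red, with exact 95% Poisson intervals, 1 library per genotype. Germ-like and erythroid-like cells sit lowest for nearly all genes, with *Dusp1* in WT erythroid-like cells the exception, *Atf3* is highest in epithelia-like and immune-like cells, and points at 0 UMIs (*Fosb* and *Atf3* in WT erythroid-like cells) are not drawn.

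Among the AP-1 subunits, *Fos* was at 896 CPM (879 to 913) in WT and 749 CPM (737 to 761) in KO granulosa-like cells. It was at 795 and 679.9 CPM in epithelia-like, 459 and 360.5 CPM in theca-like and 1266 and 713 CPM in immune-like cells. In WT the order ran from immune-like through granulosa-like and epithelia-like to theca-like cells, and the theca-like, perivascular-like (403 CPM) and endothelia-like (378 CPM) neighbours had overlapping intervals. The germ-like level of *Fos* was 11.1 CPM (10.5 to 11.7) for WT and 15.3 CPM (14.6 to 16.0) for KO.

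*Fosb*, the close relative of *Fos*, was highest in granulosa-like cells of both libraries, at 260.0 CPM (251 to 269) in WT and 200.1 CPM (194 to 207) in KO. It was at 92.8 and 75.3 CPM in theca-like and at 90.2 and 80.9 CPM in epithelia-like cells, and these intervals overlapped in both libraries. The granulosa-like level thus stood apart from every other class.

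*Jun*, the main partner of FOS proteins, was highest in epithelia-like cells among the larger classes, at 839.6 CPM (819 to 861) in WT and 841 CPM (825 to 856) in KO. It was at 567 and 484 CPM in granulosa-like and at 421 and 323 CPM in theca-like cells. *Junb*, a JUN protein that often restrains growth, had another order. Immune-like cells were at 2002 CPM (1870 to 2142) in WT and 1292 CPM (1197 to 1392) in KO, and endothelia-like cells at 866 and 538 CPM. *Junb* was lower in granulosa-like (332 and 216 CPM), theca-like (255 and 154 CPM) and epithelia-like cells (211 and 119.7 CPM), so the class with most *Jun* among the 3 larger somatic classes had least *Junb*.

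*Jund*, the JUN protein known for steady expression, spanned the narrowest range. It was at 491 CPM (479 to 504) in WT and 465 CPM (455 to 474) in KO granulosa-like cells, 509 and 557 CPM in epithelia-like, and 352 and 329.8 CPM in theca-like cells. Its germ-like level was 48.2 CPM (47.0 to 49.5) for WT and 46.8 CPM (45.6 to 48.0) for KO. *Jund* made up 39.0% of the germ-like UMIs of the 10 genes in WT and 38.8% in KO, whereas *Fos* had the largest share in granulosa-like cells (22.3% and 23.1%).

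*Atf3*, a stress-induced member of the ATF family, had the most uneven levels of the 10. It was at 553 CPM (537 to 571) in WT and 464 CPM (453 to 476) in KO epithelia-like cells, and at 492 and 810.1 CPM in immune-like cells. Granulosa-like cells were at 25.7 and 26.4 CPM and theca-like cells at 9.05 and 8.33 CPM. *Atf3* was left out of the clustering, and it still stood among the leading genes of the epithelia-like cluster.

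*Egr1* was at 416 CPM (405 to 428) in WT and 321 CPM (313 to 329) in KO granulosa-like cells, 329 and 278 CPM in epithelia-like and 302 and 211 CPM in theca-like cells. *Ier2* was at 798 CPM (782 to 814) and 612 CPM (601 to 623) in granulosa-like, 455 and 402 CPM in epithelia-like and 417 and 281 CPM in theca-like cells. Both genes were highest in immune-like cells, *Egr1* at 942 and 581 CPM and *Ier2* at 1538 and 1028 CPM.

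*Dusp1*, the phosphatase and known GR target, was low in the larger classes. It was at 39.4 CPM (35.9 to 43.1) in WT and 38.3 CPM (35.6 to 41.2) in KO granulosa-like cells, 34.0 and 25.5 CPM in theca-like, and 106 and 94.3 CPM in epithelia-like cells. The immune-like (495 and 300.1 CPM) and endothelia-like cells (216 and 158 CPM) had most. *Btg2* was highest in epithelia-like cells, at 348 CPM (334 to 361) in WT and 255 CPM (247 to 264) in KO, which overlapped the immune-like 312 and 231 CPM. It was at 196 and 125 CPM in granulosa-like and 85.3 and 58.2 CPM in theca-like cells.

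No cell type is known to lack these genes, so the germ-like levels were read against the RNA of other cells that germ-like cells carried. Granulosa markers were present in germ-like cells at a median of 1.34% (WT) and 1.57% (KO) of their granulosa-like level, with single markers from 0.806% to 8.59% over both libraries (7 of 9 markers, those at 20 CPM or more in their own class). *Fos* in WT germ-like cells was at 1.24% of its granulosa-like level and *Junb* at 1.49%, both inside that range. *Fosb* (1.89%), *Ier2* (2.33%), *Btg2* (2.48%), *Jun* (2.62%), *Egr1* (2.97%), *Atf3* (4.51%) and *Dusp1* (6.89%) lay inside it too, each above the median marker. Of these, *Btg2*, *Jun*, *Atf3* and *Dusp1* were higher in epithelia-like than in granulosa-like cells, and this granulosa scale leaves out RNA carried from other classes. *Jund*, at 9.82% in WT and 10.1% in KO, was above each of these markers. The share of each germ-like level, that of *Jund* included, that came from carried-over RNA was not tested.

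The share of cells with a UMI gave the same order for *Jund* and *Fos*. In cells thinned to 3000 UMIs, *Jund* had a UMI in 11.7% (10.96 to 12.51, exact Clopper-Pearson) of WT and 12.6% (11.9 to 13.2) of KO germ-like cells. *Fos* had one in 2.91% (2.52 to 3.34) and 3.37% (3.03 to 3.74) of them. In granulosa-like cells the shares were 73.7% and 72.1% for *Jund* and 78.1% (75.3 to 80.7) and 73.8% (71.9 to 75.8) for *Fos*. Before thinning, at medians of 17116 and 11325 UMIs, *Fos* had a UMI in 11.1% of WT and 10.9% of KO germ-like cells. Erythroid-like cells, at medians of 25859.5 and 17287.5 UMIs, had one in 42.9% of 14 and 24.1% of 54 cells.

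Germ-like cells were split into 8 clusters to follow the members through meiotic entry and prophase. One cluster, led by *Xist*, carried granulosa markers at 789 CPM in WT and 789.9 CPM in KO, against 18.8 to 32.5 CPM in the other WT clusters. Its summed member level was 1243 CPM in WT and 1197 CPM in KO, above all other germ clusters. It held 86 of 6809 WT and 141 of 10223 KO germ-like cells, and the somatic over germ ratio without it stands with the limits at the end.

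**Figure D2:**
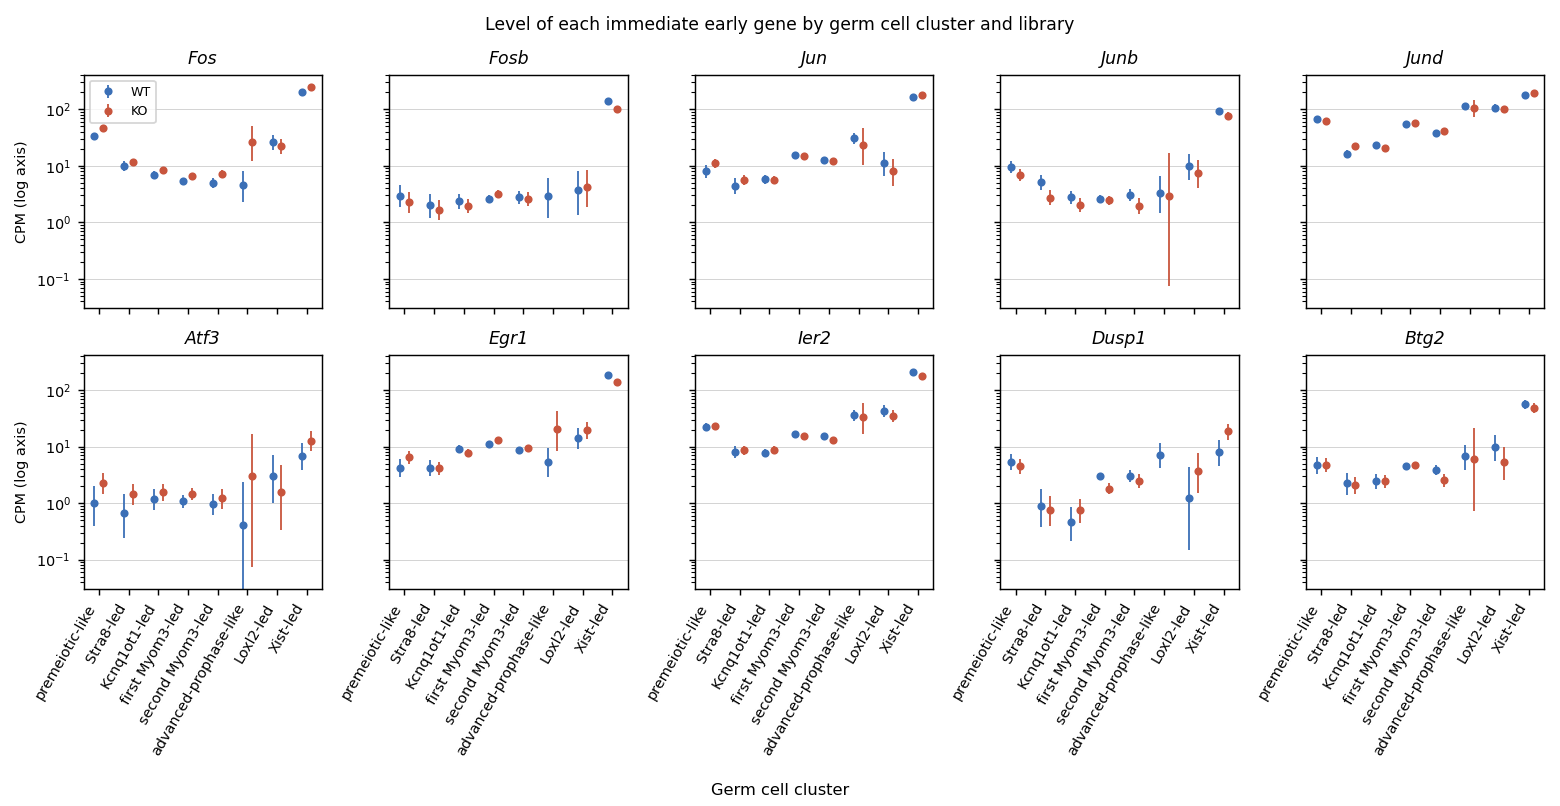
Level of each member in CPM on a log axis (vertical) by germ cell cluster (horizontal), WT in blue and KO in red, with exact 95% Poisson intervals and points at 0 UMIs not drawn. Among clusters with few granulosa markers, *Jund* is lowest in the *Stra8*-led and *Kcnq1ot1*-led and highest in the advanced-prophase-like and *Loxl2*-led ones and *Fos* is highest in premeiotic-like cells, and the *Xist*-led cluster is above the rest for most genes.

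The summed level was lowest in the *Stra8*-led cluster of WT and the *Kcnq1ot1*-led cluster of KO. It was 161 CPM in WT and 170.4 CPM in KO premeiotic-like cells, 54.3 and 61.4 CPM in the *Stra8*-led cluster, and 62.6 and 60.4 CPM in the *Kcnq1ot1*-led cluster. Recombination markers summed highest in the latter, but only 1 of 8 passed the naming rule there, and the cluster has no stage name. In the *Stra8*-led cluster 3 of 8 premeiotic markers passed that rule, so it was also named premeiotic by it, against 5 of 8 in the premeiotic-like cluster. The 2 *Myom3*-led clusters were at 116 and 94.2 CPM in WT and 121 and 94.5 CPM in KO. The advanced-prophase-like cluster, with 124 WT and 32 KO cells, was at 212 and 221 CPM. The *Loxl2*-led cluster, in which 4 of 8 premeiotic markers passed, was at 229 CPM in WT and 208 CPM in KO, so the sums followed no single order of stages.

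*Jund* also differed widely between clusters. Its WT level was 68.1 CPM in premeiotic-like cells, 16.6 CPM in the *Stra8*-led, 23.5 CPM in the *Kcnq1ot1*-led and 54.1 CPM in the first *Myom3*-led cluster, and 115 CPM in advanced-prophase-like cells, with 107 CPM in the *Loxl2*-led cluster. The KO levels from premeiotic-like to advanced-prophase-like cells were 62.6, 22.8, 20.9, 57.9 and 104 CPM. Granulosa markers were at 31.3 CPM in premeiotic-like, 24.5 CPM in first *Myom3*-led and 18.8 CPM in advanced-prophase-like WT cells. The part of carried-over RNA in these *Jund* levels was not tested.

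*Fos* was highest in premeiotic-like cells among clusters with few granulosa markers, at 34.0 CPM in WT and 46.3 CPM in KO, and between 4.60 and 9.95 CPM in the WT clusters from the *Stra8*-led to the advanced-prophase-like one. The KO advanced-prophase-like level of 26.8 CPM rests on 9 UMIs. The *Loxl2*-led cluster was at 26.4 CPM in WT and 22.4 CPM in KO. *Jun* was at 8.08 CPM in WT premeiotic-like cells, lowest at 4.47 CPM in the WT *Stra8*-led cluster, and at 30.9 CPM in WT advanced-prophase-like cells. *Ier2* was at 22.6 CPM in premeiotic-like, 8.16 CPM in *Stra8*-led and 35.9 CPM in advanced-prophase-like WT cells. *Fosb* and *Atf3* stayed at or below 4.26 CPM in every germ cluster of both libraries except the *Xist*-led one.

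Cells differed in how many members they held. At 3000 UMIs per cell, no member was detected in 73.9% of WT and of KO germ-like cells, and 5 or more were detected in 0.176% of WT and 0.215% of KO cells. In granulosa-like cells 5 or more were detected in 66.3% of WT and 54.9% of KO cells, in epithelia-like cells in 68.6% and 59.9%, in theca-like cells in 36.6% and 25.6%, and in immune-like cells in 83.9% and 82.0%. Cells without a single member were few outside the germ-like and erythroid-like classes. Their share was 0.654% in WT and 1.69% in KO granulosa-like cells and 4.37% and 7.04% in theca-like cells.

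**Figure D3:**
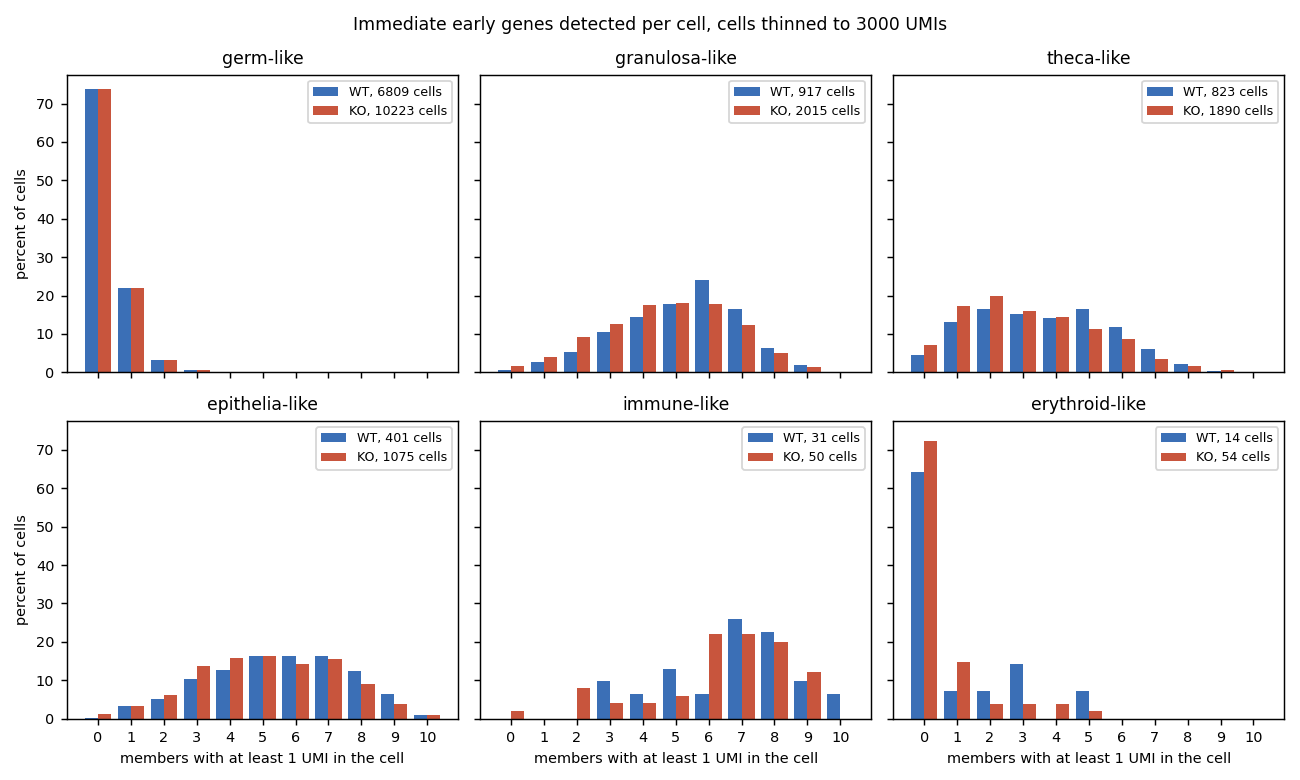
Percent of cells (vertical) by the number of the 10 genes with at least 1 UMI (horizontal), WT in blue and KO in red, cells thinned to 3000 UMIs. Most germ-like and erythroid-like cells hold 0 members, granulosa-like and epithelia-like cells centre on 5 to 6, theca-like cells spread from 0 to 10, and the KO bars of granulosa-like and theca-like cells lie further left than the WT bars.

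Members were found together in the same cells more often than the product of their separate shares. Among the 45 pairs, the observed number of cells with both genes was above the product in 43 of 45 pairs in WT and 45 of 45 in KO granulosa-like cells, with medians of 1.07 and 1.12 times the product. In theca-like cells the medians were 1.25 and 1.35 times over the 42 and 43 pairs with at least 5 cells expected, and all of these were above 1. Epithelia-like cells had medians of 1.11 and 1.14. Germ-like cells had medians of 1.92 over 14 pairs and 1.95 over 17 pairs. A class that holds cells mixed with other cell types gives such an excess by itself, and its part in these ratios was not tested.

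The pair Fos/Fosb shows the size in theca-like cells. Both genes were detected in 120 of 823 WT cells, where 83.8 were expected from the product, and in 230 of 1890 KO cells, where 139 were expected. *Fosb* was present in 27.6% of WT theca-like cells with *Fos* and 10.0% of those without. In KO the shares were 27.1% and 7.59%. In WT granulosa-like cells, where most cells held *Fos*, the pair was at 1.11 times the product.

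The ratio has little room where both genes are in most cells, as for the pair Jund/Ier2 in granulosa-like cells, at 1.03 times the product in WT and 1.04 in KO. The pair Atf3/Dusp1 was high in epithelia-like cells, where *Dusp1* was detected in 31.2% of WT cells with *Atf3* and 9.41% of those without, and in 30.1% and 12.9% in KO.

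**Figure D4:**
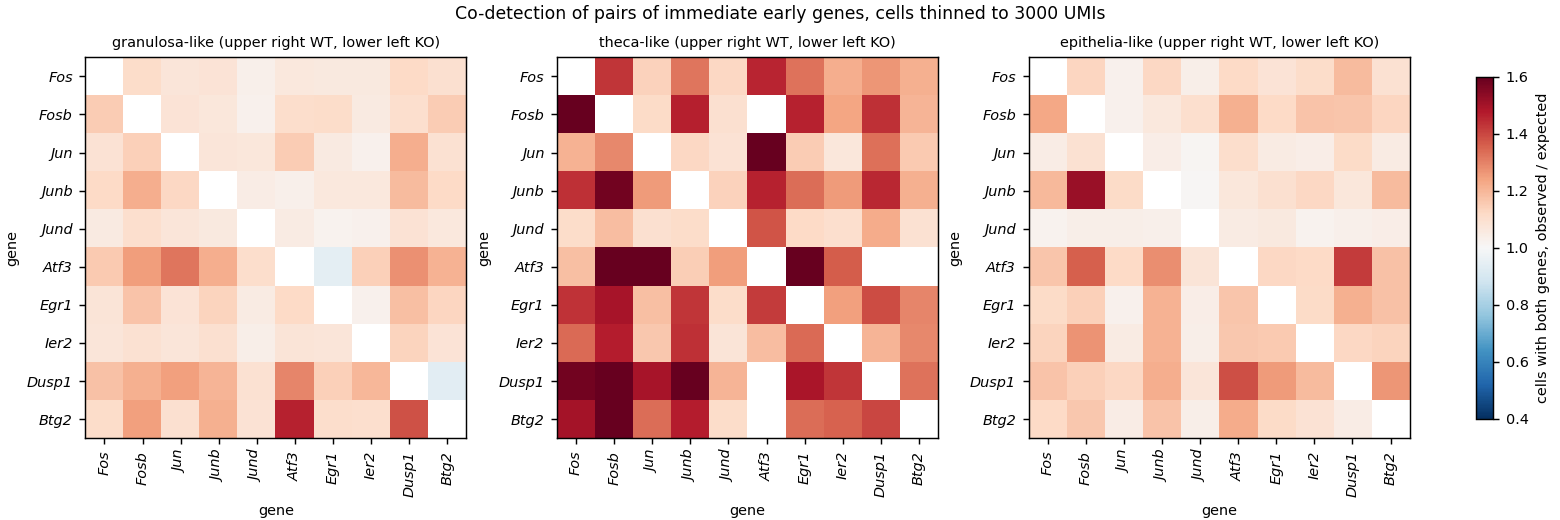
Cells with both genes of a pair divided by the number expected from the separate shares (colour, 1 is white), for each pair of members (both axes) in 3 cell classes, with WT above the diagonal and KO below it, cells thinned to 3000 UMIs. Pairs with under 5 cells expected are blank, the highest ratios share the darkest colour, nearly all other pairs are above 1, and theca-like cells have the highest ratios while many *Jund* pairs stay near 1.

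The spread of counts between cells matched this. The variance of thinned *Fos* counts was 2.63 times their mean in WT and 2.64 times in KO granulosa-like cells and 3.25 and 3.66 times in theca-like cells, where a ratio of 1 is what counting alone gives. For *Jund* the ratios were 1.26 and 1.32 in granulosa-like and 1.44 and 1.29 in theca-like cells.

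Genes outside the list that varied with the members from cell to cell were ranked by the correlation of their ln(CP10k + 1) value (natural log of counts per 10000 plus 1) with that of the summed members across granulosa-like cells. *Hes1*, a repressor downstream of Notch, came first of 9704 genes with Pearson r of 0.57 across 917 WT and 0.54 across 2015 KO cells. *Actb* had 0.40 and 0.42, *Actg1* 0.38 and 0.42, and *Rsrp1* 0.35 and 0.38. *Actb* and *Actg1* encode cytoplasmic actins, whose promoters are known SRF targets. The cells of a library share depth and free RNA, so these values only describe the libraries.

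Depth and mitochondrial share moved with the levels in granulosa-like cells. In the quartile of granulosa-like cells with most UMIs the summed members were at 3431 CPM in WT and 2483 CPM in KO, against 4455 and 3695 CPM in the quartile with fewest. From the lowest to the highest quartile of mitochondrial share the sum went from 3839 to 4178 CPM in WT and from 2712 to 3640.4 CPM in KO granulosa-like cells. In theca-like cells it went the other way, from 2626 to 2422 CPM in WT and from 1933 to 1768 CPM in KO, and in epithelia-like cells from 4339 to 4276 CPM in WT and from 3344 to 3871 CPM in KO. The correlation between cells of summed heat shock transcripts with the summed members had Pearson r from −0.04 to 0.12 over the 4 main classes and both libraries. The part of depth and mitochondrial share in the KO against WT values was not tested beyond the alternatives given below.

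In granulosa-like cells 9 of the 10 members were lower in KO than in WT, where 55% of the 11033 genes with at least 100 UMIs were. The median log2 ratio of KO over WT was −0.32, beside −0.02 over all these genes. *Btg2* (−0.64, −0.73 to −0.56) and *Junb* (−0.62, −0.68 to −0.56) were the 2 members at or below −0.5, a limit passed downward by 2.61% of genes. The same 2 genes passed the study's own size limit of 0.25 on the ln(CP10k + 1) scale, which 0.0997% of genes passed downward. *Ier2* (−0.38), *Fosb* (−0.38), *Egr1* (−0.38), *Fos* (−0.26) and *Jun* (−0.23) followed. *Jund* (−0.08), *Dusp1* (−0.04, −0.21 to 0.13) and *Atf3* (0.04, −0.17 to 0.25) were nearest to 0.

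In theca-like cells all 10 members were lower in KO, against 48% of 10638 genes, and the median was −0.40 beside 0.01. *Junb* (−0.73, −0.81 to −0.64), *Ier2* (−0.57, −0.63 to −0.50), *Btg2* (−0.55, −0.69 to −0.41) and *Egr1* (−0.52, −0.59 to −0.45) were at or below −0.5, as were 1.86% of genes. *Junb*, *Ier2* and *Egr1* passed the limit of 0.25, as 0.122% of genes did downward. *Dusp1* was at −0.41 (−0.63 to −0.20), *Jun* at −0.39, *Fos* at −0.35 and *Fosb* at −0.30, with *Jund* at −0.09.

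In epithelia-like cells 8 of the 10 members were lower in KO, against 42.6% of 10011 genes, with a median of −0.20 beside 0.03. *Junb* (−0.82, −0.92 to −0.72) was the 1 member past either limit, which 1.5% of genes passed on the log2 scale and 0.12% on the ln(CP10k + 1) scale. *Btg2* was at −0.45 (−0.52 to −0.37), *Atf3* at −0.25, *Egr1* at −0.24 and *Fos* at −0.23. *Jun* was level at 0.00 (−0.04 to 0.05), and *Jund* was higher in KO at 0.13 (0.07 to 0.19). *Junb* was thus the lowest or second lowest member in each of these 3 classes.

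**Figure D5:**
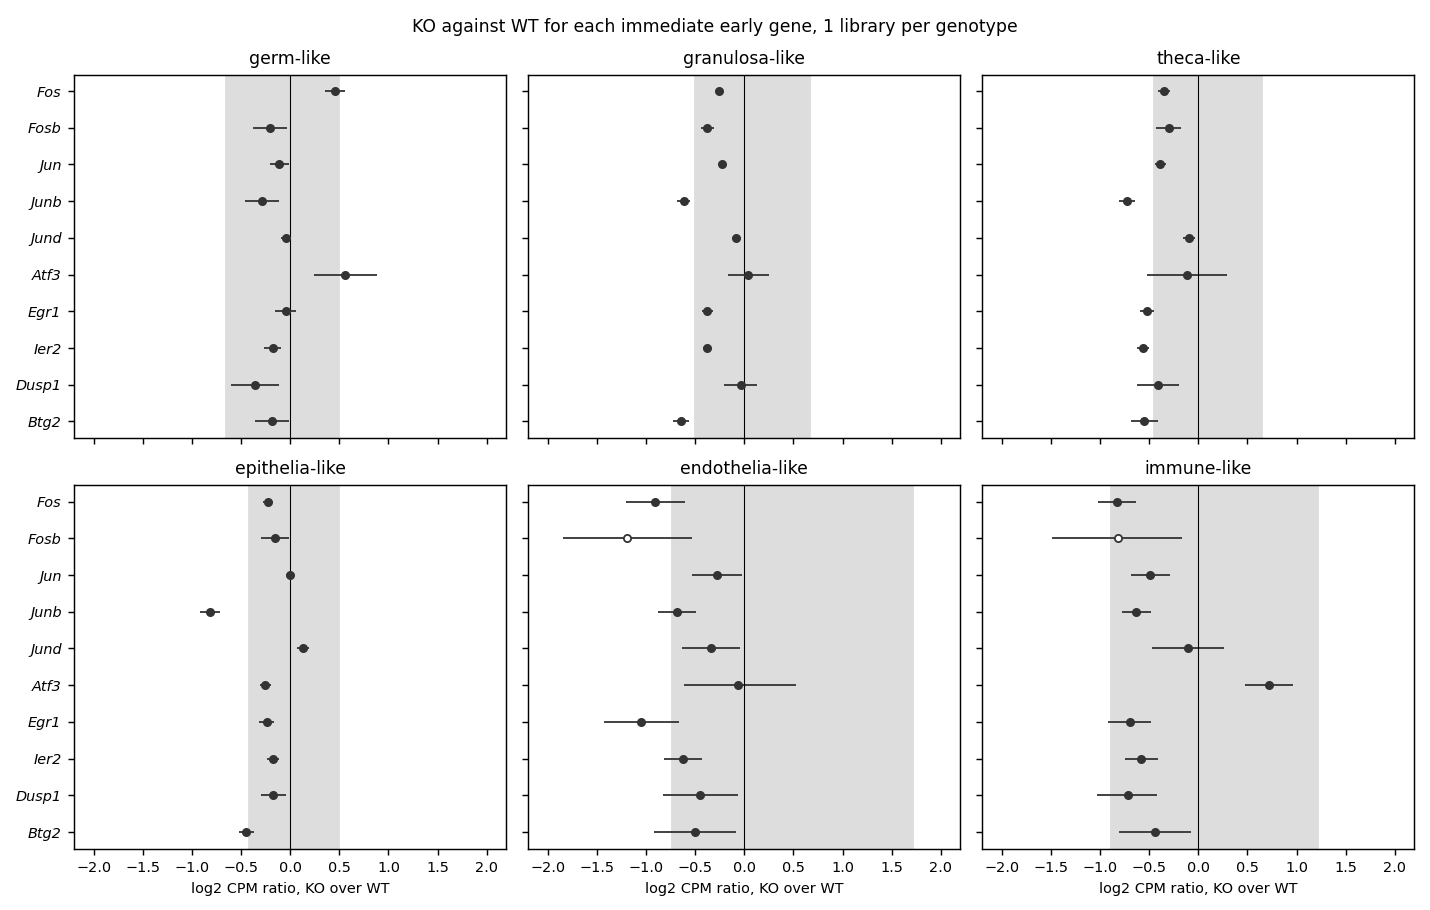
log2 ratio of CPM, KO over WT, of each member (rows) in 6 cell classes, with exact 95% conditional binomial intervals for counting error only, 1 library per genotype. The grey band holds the middle 95% of all genes with at least 100 UMIs in the class and open points mark members under that minimum. *Junb* lies left of 0 in all 6 panels, *Fos* lies right of 0 in germ-like cells only, and *Jund* stays close to 0 in the 4 larger classes.

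RNA of germ cells in the somatic-like classes differed between the libraries, and its part in these ratios was not tested. All 8 germ markers were detected in the 3 larger somatic classes of both libraries, with summed levels of 961 to 1651 CPM in WT and 1433 to 2770 CPM in KO. Their median level relative to germ-like cells was 9.34% in WT and 15.7% in KO granulosa-like cells, 15.499% and 23.1% in the theca-like class, and 10.1% and 12.1% in the epithelia-like class. With the UMIs of each class reduced by that share, the median became −0.21 for the granulosa-like class with 2 members at or below −0.5, −0.26 for the theca-like class with 1, and −0.17 for the epithelia-like class with 1. That reduction moves every gene of a class by the same amount, so the distance of the members from the other genes was fixed in advance. The medians over all genes became 0.08, 0.14 and 0.06, and the shares of genes at or below −0.5 became 1.52%, 0.912% and 1.24%. Whether germ RNA bears on all genes of a class alike was not tested. The reduction was chosen after the data were seen.

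The 2 theca-like clusters differed in ratio, in germ markers, in cycling markers and in doublet calls, and these were not separated. The second, in which cycling markers summed to 2492 CPM in WT and 1987 CPM in KO, had germ markers at 29.5% of their germ-like level in WT and 46.9% in KO. Scrublet called 24.0% of its 183 WT cells and 40.4% of its 565 KO cells doublets, against 3.91% and 3.40% in the first. Its summed members were at 2341 and 1425 CPM, a log2 ratio of −0.72 (−0.76 to −0.67). In the first, germ markers were at 9.93% in WT and 3.83% in KO, and the sum was at 2465 and 2162 CPM, a ratio of −0.19 (−0.22 to −0.16). With the UMIs of each cluster reduced by its germ marker share, the ratios of the sums were −0.31 in the second and −0.28 in the first. With the first cluster alone, 2 members were at or below −0.5, *Junb* (−0.59) and *Btg2* (−0.52), against 3.92% of genes, and *Fosb* was at 0.07 (−0.09 to 0.23).

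With cells called as doublets removed, 1 theca-like member was at or below −0.5 instead of 4, against 1.58% of genes, and the granulosa-like median was −0.22. With cells thinned to 3000 UMIs, 1 member was at or below −0.5 in each of the 3 larger somatic classes, against 2.19% of granulosa-like, 1.32% of theca-like and 1.96% of epithelia-like genes.

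The smaller classes had 30 or more cells in both libraries for the endothelia-like and immune-like cells only. In endothelia-like cells 9 members had at least 100 UMIs and all 9 were lower in KO, against 45.6% of 2564 genes. *Egr1* (−1.05), *Fos* (−0.91), *Junb* (−0.68), *Ier2* (−0.63) and *Btg2* (−0.50) were at or below −0.5, as were 8.19% of genes. In immune-like cells 8 of 9 were lower, against 38.6% of 1327 genes, and 5 were at or below −0.5, against 8.74%, among them *Fos* (−0.83), *Dusp1* (−0.72), *Egr1* (−0.70) and *Junb* (−0.63). *Atf3* was higher in KO there, at 0.72 (0.48 to 0.96). Germ markers were at 2.10% of their germ-like level in WT and 23.0% in KO endothelia-like cells and at 1.75% and 15.7% in immune-like cells. With UMIs reduced by that share, which moves every gene of a class alike, the median of the members went from −0.50 to −0.16 in endothelia-like cells. In immune-like cells it went from −0.58 to −0.36. Erythroid markers summed to 30364 CPM in WT and 1582 CPM in KO endothelia-like cells, and to 31484 and 69.4 CPM in immune-like cells. The part of germ and erythroid RNA in these ratios was not tested. In perivascular-like cells 4 of 7 members were lower, against 43.6% of 1059 genes, and *Btg2* was the 1 member at or below −0.5, as were 2.93% of genes, at −0.99 (−1.55 to −0.42), with *Jund* at 0.52 (0.09 to 0.96).

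Germ-like cells had 8 of 10 members lower in KO, against 61.1% of 13829 genes, with a median of −0.14 beside −0.05 and none at or below −0.5, which 5.37% of genes were. None passed the 0.25 limit, as 0.0795% of genes did downward. With 1 set of limits on cells for both libraries the direction turned, with 2 of 10 members lower in KO and a median of 0.055 beside −0.04. With cells thinned to 3000 UMIs, 5 of 9 members were lower, and their median was 0.008 above that of all genes. Under the study's limits and without thinning, *Dusp1* was at −0.36 (−0.60 to −0.12), *Junb* at −0.29 and *Fosb* at −0.21. *Fos* was higher in KO, at 0.46 (0.35 to 0.56), and so was *Atf3*, at 0.56 (0.24 to 0.88) from 140 WT and 208 KO UMIs.

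*Fos* was higher in KO in most germ clusters on their own. Its log2 ratio was 0.44 (0.22 to 0.68) in premeiotic-like, 0.26 (0.03 to 0.49) in first *Myom3*-led and 0.50 (0.14 to 0.86) in second *Myom3*-led cells. It was 0.21 (−0.16 to 0.59) in the *Stra8*-led and 0.29 (−0.03 to 0.62) in the *Kcnq1ot1*-led cluster, whose intervals include 0. The premeiotic-like cluster, where *Fos* was highest, held 621 of 10223 KO and 301 of 6809 WT germ-like cells. *Dusp1* was at −0.72 (−1.12 to −0.34) in first *Myom3*-led cells, from 169 WT and 84 KO UMIs, and *Jund* was at 0.46 (0.18 to 0.75) in the *Stra8*-led cluster and at 0.10 (0.02 to 0.17) in the first *Myom3*-led one. With the members left out of the clustering, the sum over the 10 genes differed little within clusters, from −0.14 to 0.18 in log2 ratio.

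Other genes of the same response were taken from textbook lists, which were drawn up with earlier results of these data known. Of 32 further immediate early genes, 25 had at least 100 UMIs in granulosa-like cells, and 19 of these were lower in KO, against 55% of all genes, with a median of −0.26. In theca-like cells it was 25 of 26, against 48%, with −0.28, for the epithelia-like class 22 of 29, against 42.6%, with −0.09, and for germ-like cells 20 of 26, against 61.1%, with −0.19. *Maff*, a small MAF partner of AP-1 proteins, was lowest in granulosa-like cells at −0.72 (−1.24 to −0.20), and *Ier5l* was highest at 0.53 (0.20 to 0.87).

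Upstream kinases and factors had medians closer to 0 than the members in the 3 larger somatic classes but not in germ-like cells. Their median was −0.14 over 14 genes for the granulosa-like class, −0.11 over 14 for the theca-like class and 0.06 over 13 for the epithelia-like class, with *Egfr*, a growth factor receptor, lowest in granulosa-like cells (−0.71, −1.14 to −0.29) and *Mapk14*, the p38 kinase, highest (0.11, −0.12 to 0.34). Other AP-1 proteins had medians of −0.19 over 6 genes, 0.06 over 7 and 0.02 over 8 in the same classes, with *Fosl2* lowest (−0.43, −0.72 to −0.15) and *Atf7* highest (0.23, 0.01 to 0.46). In germ-like cells the medians were −0.15 over 14 upstream genes and −0.13 over 8 AP-1 proteins.

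Heat shock genes did not share the lower values. Over 12 genes, their median was 0.11 in germ-like and 0.06 in granulosa-like cells, 0.01 for the theca-like class and 0.04 for the epithelia-like class. *Hspa5*, the chaperone of the endoplasmic reticulum, was higher in KO in granulosa-like cells (0.26, 0.22 to 0.30), and *Dnajb1*, a cochaperone of HSP70, was lower (−0.36, −0.46 to −0.26). With 1 library for each genotype, the genotype, the pool of embryos, the digestion and the sort cannot be told apart in any of these values.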

How the data were processed

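Single-cell count matrices of 1 KO and 1 WT library were used as deposited: whole-number UMI counts per gene and barcode, which the authors made with Cell Ranger 3.0.2 per the file headers, on mm10 per the labels. The submitters' processing notes also name Seurat 3.2.3. The study's limits were applied again (mitochondrial share under 10%, genes from 1500 to 6500 and UMIs from 5500 to 40000 in WT, genes from 1200 to 5500 and UMIs from 3000 to 30000 in KO). The libraries held 168483330 UMIs in 11430 WT barcodes and 186117981 UMIs in 17829 KO barcodes, and 75 barcodes occurred in both.

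Cells were normalized, gene and UMI number and mitochondrial and ribosomal share were regressed out, and cells were reduced to 30 principal components of 2000 variable genes and clustered (leidenalg 0.10.2, resolution 0.5, 20 neighbours) without the 42 listed early genes. Germ-like cells were clustered again at resolution 0.3 with the library regressed out too, a choice made after the clusters were seen. Doublets were called with Scrublet in scanpy 1.11.5 (6.51% of KO and 3.18% of WT cells). UMIs were summed per class and library. No test across samples exists, so CPM have exact Poisson intervals, log2 ratios exact conditional binomial intervals and shares exact Clopper-Pearson intervals (SciPy 1.17.1). Ratios were compared with all genes having 100 or more UMIs over both libraries. Counts of overlapping genes were taken as deposited. Intervals were run on class sums simulated from a Poisson distribution. These hold no spread between cells or libraries beyond counting, so the simulation says nothing about such spread.

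The members and the lists (32 early genes, 11 AP-1 proteins, 14 upstream genes, 12 heat shock genes, class, stage and cycling markers) were chosen with earlier results of these data known. All members are named, in each list the genes with the highest and lowest granulosa-like ratio, and the 5 genes most correlated with the summed members, of which 1 is not reported here. Gene models came from GENCODE on GRCm38, where 98.7% of gene IDs matched, and promoters from RefSeq. Alternatives covered cell limits, doublets, thinning, scaling, clustering and thresholds.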

Additional observations from a re-analysis of the deposited data

Results flagged for a closer look

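The KO library differed from the WT library in opposite directions in different cell classes for 3 of the 10 genes, with intervals for counting error on either side of 0, and in each case the difference was not tested because each genotype is 1 library. How many of all genes do so was not counted. Intervals off 0 were common, lying below 0 for 36.4% and above 0 for 20.5% of germ-like genes. The shares were 16.7% and 14.7% for granulosa-like, 12.9% and 17.3% for theca-like and 6.9% and 11.3% for epithelia-like genes. *Fos* was higher in KO germ-like cells (0.46 in log2 ratio) and lower in the immune-like, endothelia-like, epithelia-like, theca-like and granulosa-like classes. *Atf3* was higher in KO germ-like (0.56) and immune-like cells (0.72) and lower in epithelia-like cells. *Jund* was higher in KO epithelia-like (0.13) and perivascular-like cells (0.52) and lower in granulosa-like, theca-like and endothelia-like cells.

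Barcodes left out for a mitochondrial share of 10% or more held the members at 1273 CPM in KO and 1329 CPM in WT, above the 944 and 821 CPM of the kept cells of those libraries. *Fosb* was at 211 CPM in KO and 238 CPM in WT in these barcodes, against 38.7 and 35.7 CPM in kept cells. The cell types of the left-out barcodes were not assigned, and granulosa-like cells, which had the most *Fosb*, also had the highest mitochondrial share among the kept classes (medians of 5.94% in KO and 7.15% in WT).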

How the results depend on the processing

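No paired analysis was possible because each genotype is 1 pooled library, and for the same reason no replicate could be left out and depth limits only the counting error. Over 15 alternatives, 47 of 48 medians of the members were below 0, and 433 of 479 single-gene ratios kept their sign. All alternatives use the same 2 libraries. Under the main setting the median over all genes was also below 0 in germ-like (−0.05) and granulosa-like cells (−0.02). The germ-like members had a median 0.096 above that of all genes under common limits and 0.008 above it with thinning. Shares of genes in brackets are those at or below the negative log2 limit of the same setting. Shares of genes past the ln(CP10k + 1) limit were not computed for the alternatives. With 1 set of limits for both libraries the germ-like median was 0.055, the epithelia-like median −0.27, and 2 epithelia-like members passed each size limit (2.01% of genes). A mitochondrial limit of 5% gave 1 germ-like member (7.33% of genes) and 1 granulosa-like member (6.61% of genes) at or below −0.5. It gave 0 granulosa-like members past the ln(CP10k + 1) limit, and 2 epithelia-like members past each limit (2.95% of genes). Removing doublets gave a granulosa-like median of −0.22, 1 granulosa-like member past the ln limit and 1 theca-like member at or below −0.5 (1.58% of genes). Removing cells with 2 or more UMIs of another class's markers left few somatic-like cells and no epithelia-like ones. The medians were −0.093 (granulosa-like) and −0.29 (theca-like), with 1 member past each limit in either class (4.68% and 7.57% of genes), and theca-like *Btg2* at 0.99. Thinning gave a granulosa-like median of −0.25 and 1 member past each limit in granulosa-like (2.19% of genes) and in theca-like cells (1.32% of genes). It gave 1 germ-like member at or below −0.5 (3.88% of genes). Leaving genes for haemoglobin, ribosomal proteins and mitochondrial transcripts out of the scaling put 2 epithelia-like members past the ln limit. A mean over cells put 2 theca-like members at or below −0.5 (1.63% of genes). Stricter limits (1 in log2, 0.5 in ln) left 0 members in the 3 larger somatic classes (0.335%, 0.207% and 0.14% of granulosa-like, theca-like and epithelia-like genes). A further 3 alternatives were chosen after the data were seen. UMIs net of germ carry-over, which moves every gene of a class alike, gave medians of −0.21 (granulosa-like) and −0.26 (theca-like). That left 1 granulosa-like member past the ln limit and 1 theca-like member past each limit (0.912% of genes). The first theca-like cluster alone gave −0.20 with 2 members at or below −0.5 (3.92% of genes) and 1 past the ln limit. Leaving out the *Xist*-led cluster put 1 germ-like member at or below −0.5 (5.55% of genes). The log2 excess of somatic-like over germ-like sums (4.59 KO, 4.86 WT) was 4.63 and 4.90 when thinned, 4.93 and 5.11 without doublets, 5.07 and 5.57 without cells carrying other markers, 4.63 and 5.07 under common limits, and 4.83 and 5.10 without the *Xist*-led cluster. The share of cells with 3 or more members (germ-like 0.919% KO and 0.867% WT, granulosa-like 85.1% and 91.3%) was 8.24%, 15.48%, 97.8% and 99.5% before thinning, and without doublets 0.548% and 0.586% in germ-like and 87.3% in KO granulosa-like cells. The cause of these shifts was not tested.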
